A study of Homo sapiens with 9 samples.

Results

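The genes described here encode the core machinery that turns citrate and acetate into palmitate. They are ACLY, ACACA, ACACB, FASN, ME1, SLC25A1, ACSS2, THRSP and MID1IP1, 9 of the 19317 genes in the deposited table, and they were taken by name for their known roles and matched through their Ensembl identifiers. RNA was sequenced from HepG2, an established human hepatocellular carcinoma cell line used as a stand-in for hepatocytes. Each of 3 groups had 3 samples, and all 9 samples carry the genotype label WT. The control group, also named WT, was kept in RPMI. The DNL group, a model of de novo lipogenesis, was held for 1 week in DMEM with insulin at 10 µg/ml and T0901317 at 10 µM, a synthetic agonist of the liver X receptors (LXR). The OA group was given 25 µM oleic acid, dissolved in 11% BSA in PBS, in DMEM for 6 hours. All 3 media contained 10% FBS and 1% P/S. The models differ from each other in agent and in time, and from WT in medium too, and no sample separates these, so they cannot be told apart. In bulk RNA, fewer cells of a type and less RNA per cell cannot be told apart either.

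Fatty acid synthesis begins with citrate that SLC25A1 carries out of the mitochondrion and ACLY splits into acetyl-CoA, while ACSS2 makes acetyl-CoA from acetate. The acetyl-CoA carboxylases ACACA and ACACB convert acetyl-CoA to malonyl-CoA, ACACA in the cytosol and ACACB at the outer mitochondrial membrane, where malonyl-CoA restrains fatty acid import through CPT1A. FASN condenses malonyl-CoA into palmitate with NADPH, part of which the malic enzyme ME1 can supply. THRSP (Spot 14) and its paralogue MID1IP1 (MIG12) bind and modulate acetyl-CoA carboxylase. In liver, LXR and insulin act on these genes largely through SREBP-1c, the product of SREBF1, and glucose acts through ChREBP, the product of MLXIPL.

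The promoters of some members are shown for reference. RefSeq sequences (GRCh38.p14) gave 13 start sites for 8 of the 9 members, and none for FASN. The 250 bases before each start were searched on both strands for 4 motifs linked to lipogenic regulation: the E-box CACGTG, the sterol regulatory element core TCACNCCAC, the NF-Y box CCAAT and the Sp1 box GGGCGG. A pair of half-sites AGGTCA in direct repeat with 4 bases between them, the classical LXR arrangement, was also searched. A single half-site was in 1 of the 13 windows, of ACACA, and in 12.1% of all windows. The sterol element core was present in 1 of the 13 windows, that of MID1IP1, starting 40 bases before the start site. It was present in 0.881% of 34943 such windows of all genes. The NF-Y box was in 9 of the 13 windows (32.04% of all windows), and the Sp1 box in 10 windows (42.5%). By member, the NF-Y box was in 7 of the 8, and the share of all genes with it was not counted. The ACLY windows overlap each other. The E-box (6.32% of all windows) and the direct repeat (0.0143%) were in 0 of the 13, which says only that these letters are not in these windows. Below, ACLY, ACACA and ACSS2 were higher in DNL and MID1IP1 went in opposite directions in the 2 models, and capitals mark the matched motifs.
ACLY, chr17:41919023-41919272, minus strand: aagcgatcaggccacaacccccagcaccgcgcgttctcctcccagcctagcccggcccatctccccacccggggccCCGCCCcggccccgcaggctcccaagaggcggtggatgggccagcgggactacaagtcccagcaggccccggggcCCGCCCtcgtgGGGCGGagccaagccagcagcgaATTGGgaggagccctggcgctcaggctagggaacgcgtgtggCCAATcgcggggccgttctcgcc
ACACA, chr17:37359097-37359346, minus strand: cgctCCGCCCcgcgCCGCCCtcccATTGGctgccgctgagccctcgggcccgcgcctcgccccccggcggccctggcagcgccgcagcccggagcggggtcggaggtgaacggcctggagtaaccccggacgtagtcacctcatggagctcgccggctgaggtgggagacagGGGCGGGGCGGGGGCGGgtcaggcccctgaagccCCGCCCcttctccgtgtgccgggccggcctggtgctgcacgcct
ACSS2, chr20:34876362-34876611, plus strand: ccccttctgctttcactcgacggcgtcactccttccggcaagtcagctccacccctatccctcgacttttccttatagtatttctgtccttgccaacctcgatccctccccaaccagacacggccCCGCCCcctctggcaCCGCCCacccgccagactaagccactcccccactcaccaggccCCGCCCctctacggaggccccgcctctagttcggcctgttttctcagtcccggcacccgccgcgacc
MID1IP1, chrX:38801209-38801458, plus strand: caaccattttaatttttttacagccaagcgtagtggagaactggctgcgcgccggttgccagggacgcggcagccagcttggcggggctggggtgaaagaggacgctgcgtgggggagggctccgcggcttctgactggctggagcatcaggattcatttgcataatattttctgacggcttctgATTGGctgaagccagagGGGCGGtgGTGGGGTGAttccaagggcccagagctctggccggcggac

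Estimated counts summed to 26425581 to 43043316 per WT library, 16447381 to 36147348 per DNL library and 7836447 to 28636835 per OA library. Libraries correlated at 0.965 or more within a group and at 0.954 or less between groups. The HepG2 and hepatocyte markers (ALB, APOB and 8 others) were all detected. Their summed level was 43923 to 45611 CPM (counts scaled to a common library size) in WT, 78697 to 80535 in DNL and 14955 to 17022 in OA, and 9 of 10 fell in OA against WT. Fibroblast markers, which HepG2 cells should lack, were summed at 10.8 to 14.9 CPM in WT and 3.16 to 3.39 in DNL. In OA their sum was 36.7 to 875 CPM, and the rise lay mainly in the collagen chains COL1A1, COL1A2 and COL3A1. PDGFRB went the other way, at 9.46, 11.6 and 8.71 CPM in WT and 2.37, 4.35 and 7.60 in OA. Of 5 fibroblast markers tested, 2 were called higher and 1 lower in OA against WT (30.4% and 29.7% of all genes). COL1A1, a fibrillar collagen chain, measured 19.3, 85.0 and 537 CPM in OA replicates 1, 2 and 3. It measured 0.622 to 0.990 CPM in WT and 0.399 to 0.706 in DNL. OA replicate 3 therefore had the highest COL1A1 level, and the members' results in OA are also given without it. So are INSIG1 and the counts of other pathway genes, in total and for the list whose count moved most. Replicates 1 and 2 carry collagen reads too, so leaving out replicate 3 lessens this signal without removing it.

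Of the 9 members, 7 passed the filter on low counts, and each of these had at least 129 counts in every library. ME1 and THRSP did not. In DNL against WT all 7 tested members were higher at an adjusted p under 0.05, where 27.1% of the 13636 genes tested were called higher and 26.8% lower. Their median log2 fold change was 1.31, against -0.02 over all genes tested. In OA against WT 3 members were higher, 2 were lower and 2 did not pass the test, where 30.4% of all genes were called higher and 29.7% lower. The median was 0.01, against -0.03 over all genes. Both comparisons use the same WT samples. In the direct comparison of DNL with OA all 7 were higher in DNL (31.9% of all genes higher, 30.9% lower), with a median of 1.64 against 0.01. Without OA replicate 3 the calls of all 7 were the same in each comparison.

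**Figure D1:**
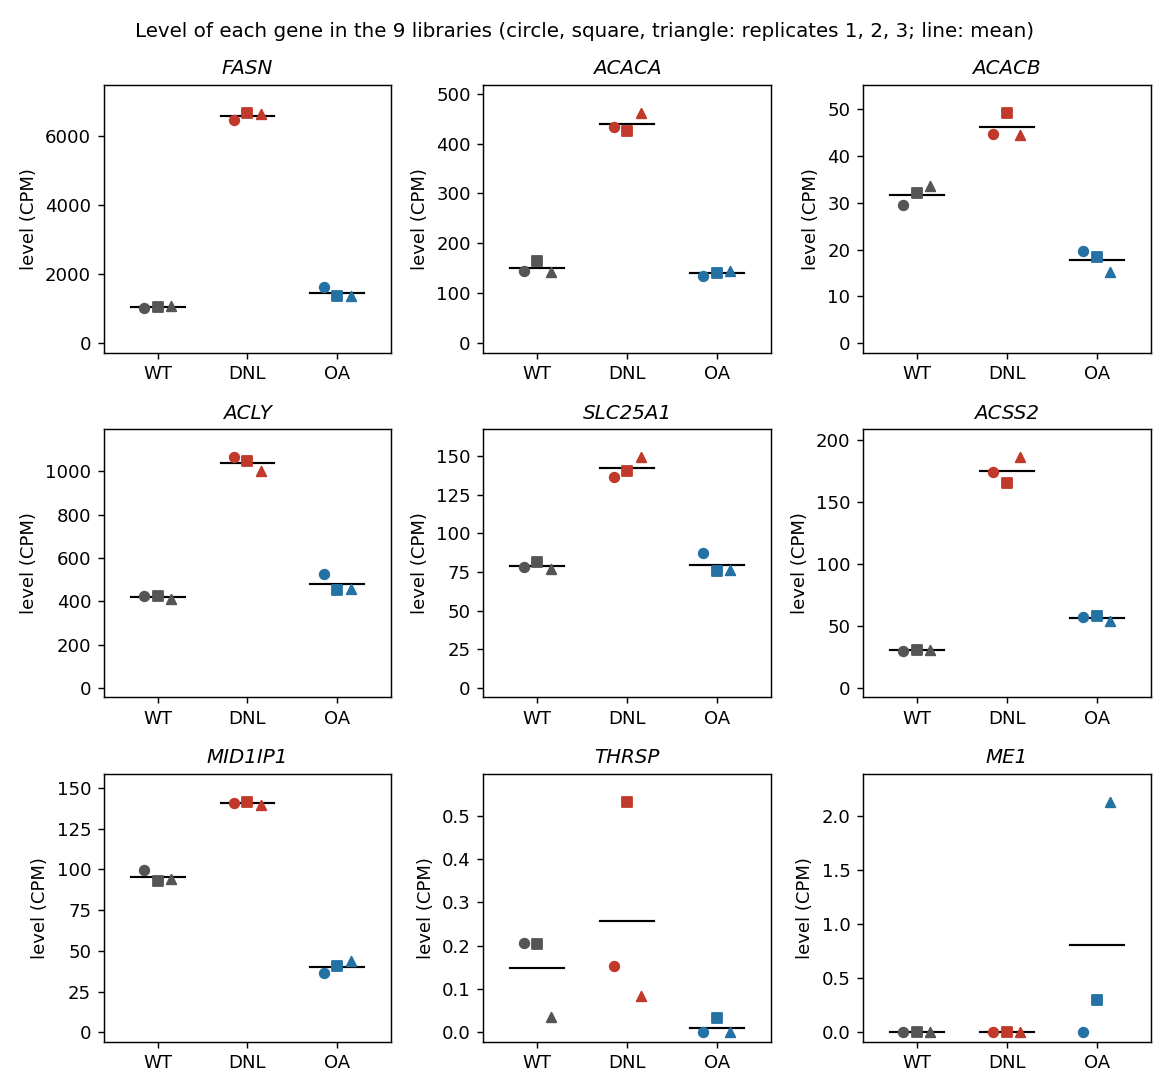
Level of each of the 9 genes in CPM (vertical axis, linear, with its own scale per gene) in the 3 WT, 3 DNL and 3 OA libraries. Points are libraries and lines are group means; FASN reaches 6466 to 6666 CPM in DNL, while THRSP and ME1 stay near 0.

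FASN (chromosome 17, 82078333 to 82098332, GENCODE 29 on GRCh38), the fatty acid synthase, had the highest level of the 9. It measured 1029, 1062 and 1067 CPM in WT replicates 1 to 3, 6466, 6666 and 6615 in DNL, and 1620, 1381 and 1356 in OA. The 3 groups did not overlap, and every DNL library was far above the others. FASN rose 6.25-fold in DNL (log2 fold change 2.64, SE 0.0605, adjusted p = 4.83e-12), which placed it 178th from the top of the 13636 genes. In OA it rose 1.38-fold (log2 fold change 0.46, SE 0.0573, adjusted p = 1.55e-05), and 1.42-fold without OA replicate 3. OA replicate 1 was highest, and the rise was 1.30-fold without it and 1.54-fold with it alone. DNL exceeded OA 4.53-fold (adjusted p = 1.12e-11). FASN alone took 0.108% ± 0.00344 of all counts in WT, 0.600% ± 0.0167 in DNL and 0.156% ± 0.0168 in OA (SD, n = 3).

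The acetyl-CoA carboxylases differed from each other. ACACA (chromosome 17, 37084988 to 37406818), the cytosolic isoform, measured 145, 164 and 142 CPM in WT, 433, 425 and 462 in DNL, and 135, 140 and 145 in OA. DNL stood apart, and the OA and WT ranges overlapped. ACACA rose 2.92-fold in DNL (log2 fold change 1.55, SE 0.0567, adjusted p = 2.17e-10). In OA its log2 fold change was -0.10, with a 95% confidence interval from -0.23 to 0.02 (adjusted p = 0.145), and it was -0.13 without OA replicate 3 (adjusted p = 0.112). ACACB (chromosome 12, 109116595 to 109268226), the mitochondrial isoform, measured 29.4, 32.1 and 33.5 CPM in WT, 44.7, 49.2 and 44.4 in DNL, and 19.7, 18.5 and 15.3 in OA. None of its 3 groups overlapped, with OA lowest and DNL highest. ACACB rose 1.45-fold in DNL (log2 fold change 0.54, SE 0.0881, adjusted p = 0.00019) and was 1.76-fold lower in OA than in WT (log2 fold change -0.81, SE 0.0948, adjusted p = 8.1e-06). Without OA replicate 3 the log2 fold change of ACACB was -0.73 (adjusted p = 1.70e-05).

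The balance of the isoforms was taken inside each library, where no scaling factor is needed. Per 100 ACACA counts there were 20.2, 19.6 and 23.6 ACACB counts in WT, 10.3, 11.6 and 9.61 in DNL, and 14.5, 13.2 and 10.5 in OA. Every WT library lay above all others, while DNL and OA overlapped. The log2 ratio was -2.25 ± 0.143 in WT, -3.25 ± 0.135 in DNL and -2.98 ± 0.235 in OA (SD, n = 3). It differed from WT by -1.01 in DNL and by -0.73 in OA (exact two-sided permutation p = 0.1 for each, the smallest that 3 against 3 samples allow, and 0.15 after Benjamini-Hochberg adjustment over 3 tests). DNL and OA differed by -0.28 (exact permutation p = 0.2). Without OA replicate 3 the difference of OA from WT was -0.60 and that of DNL from OA -0.41. In DNL the ratio was lower in all 3 libraries although both genes rose, and in OA it was lower in all 3 while ACACB fell and ACACA did not pass the test.

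**Figure D2:**
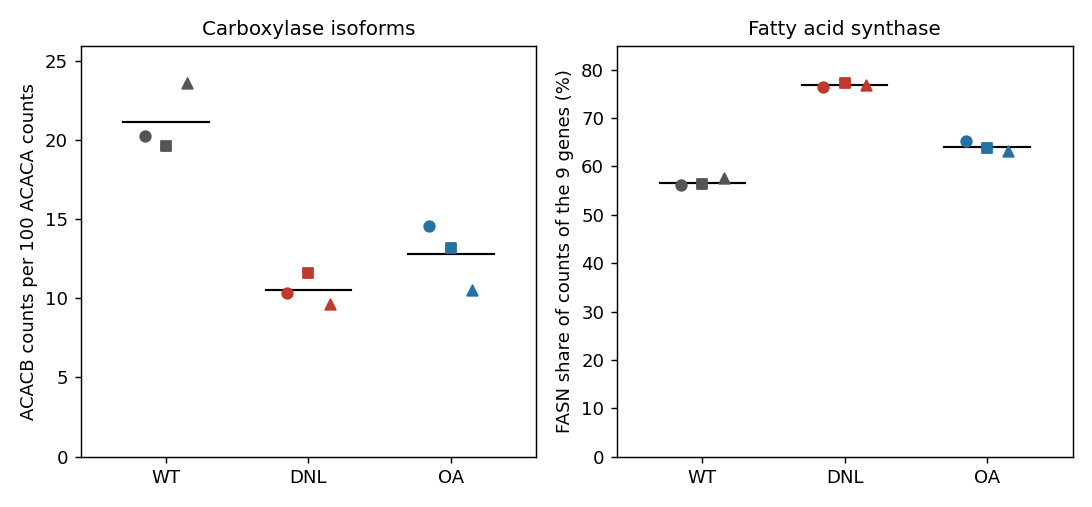
ACACB counts per 100 ACACA counts (left) and the share of FASN in the summed counts of the 9 genes in percent (right), for each library of WT, DNL and OA, with group means as lines. The left values lie between 19.6 and 23.6 in WT and between 9.61 and 14.5 in the other libraries, and the right means are 56.6% in WT, 76.9% in DNL and 64.1% in OA.

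Among the suppliers of acetyl-CoA, ACSS2 changed most. ACSS2 (chromosome 20, 34872146 to 34927962), the cytosolic and nuclear acetyl-CoA synthetase, measured 29.8, 30.7 and 30.3 CPM in WT, 174, 165 and 186 in DNL, and 57.2, 57.9 and 53.7 in OA. The groups did not overlap, with OA between WT and DNL. It rose 5.80-fold in DNL (log2 fold change 2.54, SE 0.0581, adjusted p = 3.54e-12), close to the rise of FASN. In OA it rose 1.87-fold (log2 fold change 0.90, SE 0.0588, adjusted p = 3.77e-08), the highest log2 fold change of the 7 tested members in that comparison, and 1.90-fold without OA replicate 3.

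ACLY (chromosome 17, 41866908 to 41930542), the ATP citrate lyase, measured 423, 424 and 409 CPM in WT, 1065, 1047 and 1001 in DNL, and 528, 451 and 454 in OA. OA lay narrowly above WT, with replicate 1 highest, and DNL lay far above both. AC125257.2 on the opposite strand overlaps 156 exonic bases of ACLY, and without a stated strand setting their reads cannot be told apart. ACLY rose 2.48-fold in DNL (log2 fold change 1.31, SE 0.0554, adjusted p = 8.92e-10). In OA it rose 1.14-fold (log2 fold change 0.19, SE 0.0551, adjusted p = 0.00989), and the log2 fold change was 0.22 without OA replicate 3 (adjusted p = 0.00612), 0.11 without OA replicate 1 (adjusted p = 0.0218) and 0.33 with OA replicate 1 alone (adjusted p = 0.000118). SLC25A1 (chromosome 22, 19175575 to 19178830), the mitochondrial citrate carrier, measured 78.4, 81.3 and 77.2 CPM in WT, 137, 141 and 149 in DNL, and 87.3, 75.4 and 76.5 in OA. Its WT and OA ranges overlapped. SLC25A1 rose 1.80-fold in DNL (log2 fold change 0.85, SE 0.0607, adjusted p = 1.08e-07). In OA its log2 fold change was 0.01, with a 95% confidence interval from -0.12 to 0.15 (adjusted p = 0.875), and it was 0.04 without OA replicate 3 (adjusted p = 0.685).

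MID1IP1 (chromosome X, 38801432 to 38806537), which promotes polymerisation of acetyl-CoA carboxylase, moved in opposite directions in the 2 models. It measured 99.6, 92.6 and 94.2 CPM in WT, 141, 142 and 139 in DNL, and 36.4, 40.8 and 43.9 in OA. The 3 groups did not overlap. It rose 1.47-fold in DNL (log2 fold change 0.56, SE 0.0593, adjusted p = 4.56e-06) and was 2.37-fold lower in OA than in WT (log2 fold change -1.25, SE 0.0639, adjusted p = 4.01e-09). Without OA replicate 3 the log2 fold change of MID1IP1 was -1.30 (adjusted p = 5.22e-09). The direct difference between DNL and OA was 3.49-fold (log2 fold change 1.80, SE 0.0644, adjusted p = 8.39e-11). ACACB, the other member lower in OA, differed 2.55-fold in the same comparison (adjusted p = 5.21e-08). Most hepatocyte markers were also lower in OA and higher in DNL, as given above. Their part in these falls in OA, and in the members' rises in DNL, was not tested. Its antisense neighbour MID1IP1-AS1 overlaps 151 exonic bases of MID1IP1, and without a stated strand setting their reads cannot be told apart.

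**Figure D3:**
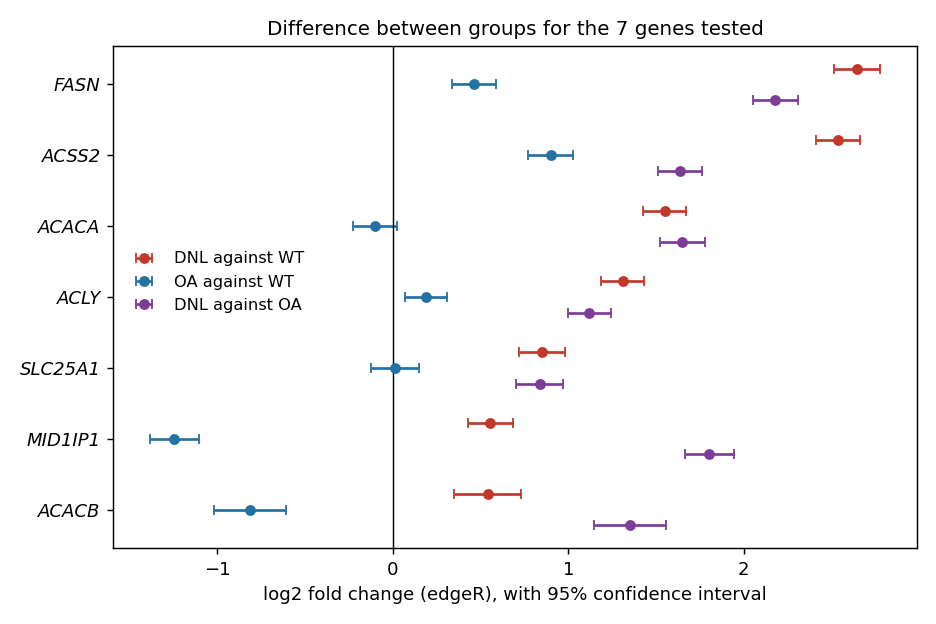
Log2 fold change with its 95% confidence interval (horizontal axis) for the 7 genes tested, in DNL against WT, OA against WT and DNL against OA. All 7 intervals of DNL against WT lie above 0, whereas in OA against WT those of ACACA and SLC25A1 cross 0 and those of MID1IP1 and ACACB lie below it.

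THRSP (chromosome 11, 78063861 to 78068351), the thyroid hormone responsive Spot 14 protein, was barely detected. It had 9, 6 and 1 counts in WT, 5, 8 and 2 in DNL, and 0, 1 and 0 in OA. Summed per group this was 0.163 CPM (unscaled) in WT (exact 95% interval 0.0930 to 0.264), 0.191 in DNL (0.107 to 0.314) and 0.0208 in OA (0.000525 to 0.116), for counting error only. The intervals of DNL and WT overlap, so no difference between them was detectable at this depth. THRSP shares 48 exonic bases with NDUFC2 on the opposite strand.

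ME1 (chromosome 6, 83210389 to 83431071), the cytosolic malic enzyme, had 0 counts in all 3 WT and all 3 DNL libraries. By the floor of 3 counts per group, a count of 0 allows up to 0.0305 CPM (unscaled) over the WT group and 0.0381 over the DNL group. Its counts were 0, 9 and 18 in OA replicates 1, 2 and 3. Set against a floor of 3 counts over the WT group, the level measured over the OA group was 18.4-fold higher. Without OA replicate 3 it was 7.31-fold higher. Both values leave out counting error on the OA counts and the spread between OA libraries, so neither is a lower limit. The OA libraries with more ME1 were those with more COL1A1 (19.3, 85.0 and 537 CPM), and the part of the collagen signal's source was not tested. A count of 0 may also come from the way the estimator assigned reads, which was not tested. Of the mitochondrial malic enzymes, ME2 measured 23.3 ± 4.60 CPM in WT, 19.2 ± 5.54 in DNL (adjusted p = 0.285) and 13.0 ± 1.53 in OA (SD, n = 3, adjusted p = 0.0107 for OA against WT). ME3 had 1, 3 and 7 counts over the WT, DNL and OA groups.

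The members' order by level was compared per kilobase of merged exons in the basic GENCODE 29 set, an approximation since the isoforms counted are not given. In WT it ran from FASN at 123 CPM per kilobase through ACLY (95.7), SLC25A1 (44.3), MID1IP1 (25.2), ACACA (13.7) and ACSS2 (9.75) to ACACB (3.35). In DNL FASN stood at 768, ACLY at 237, SLC25A1 at 79.8, ACSS2 at 56.5, ACACA at 39.9, MID1IP1 at 37.1 and ACACB at 4.88. In OA the values were 170, 109, 44.7, 18.1 (ACSS2), 12.7 (ACACA), 10.7 (MID1IP1) and 1.89. MID1IP1 thus stood above ACACA and ACSS2 in WT and below both in DNL and OA, and ACSS2 moved from below ACACA to above it.

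Together the 9 genes took 0.190% ± 0.00433 of all counts in WT, 0.781% ± 0.0182 in DNL and 0.243% ± 0.0221 in OA (SD, n = 3). FASN made up 56.6% ± 0.814 of that sum in WT, 76.9% ± 0.390 in DNL and 64.1% ± 1.06 in OA. Members also differed in how closely they followed each other over the 9 libraries. The root mean square difference of centred log2 levels, a measure of likeness that is 0 for parallel profiles, was lowest for ACLY with SLC25A1 (0.199) and next for ACACA with ACLY (0.239) and ACSS2 with FASN (0.248). ACACB and MID1IP1, the pair that fell in OA, stood at 0.261. The highest value was 0.968, for ACSS2 with MID1IP1. The libraries come from 3 groups only, so these values mainly reflect group means.

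By the same measure, over 10272 other genes averaging 5 CPM or more, the profiles nearest to FASN were those of CADM1 (0.0706), KCNJ10 (0.0941), TNFRSF19 (0.112), TACC1 (0.150) and PLTP (0.172). CADM1, a cell adhesion molecule, measured 53.1 ± 2.19 CPM in WT, 317 ± 6.44 in DNL and 67.3 ± 3.16 in OA. PLTP, the phospholipid transfer protein and a known LXR target, measured 14.2 ± 0.437, 71.0 ± 2.80 and 19.6 ± 2.37 CPM. The member farthest from FASN was MID1IP1 (0.916). Its nearest profiles were those of CGNL1 (0.0629), IL22RA1 (0.0868), LRP1 (0.0941), ITIH2 (0.0961) and ALAD (0.102). LRP1, an endocytic receptor of hepatocytes, measured 1061 ± 19.7 CPM in WT, 1552 ± 39.3 in DNL and 462 ± 17.8 in OA (SD, n = 3).

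Genes that regulate, feed or follow the pathway were counted in 6 lists with 72 genes, of which 71 passed the filter. Against WT, 26 rose and 18 fell in DNL, where 27.1% of all genes tested were higher and 26.8% lower. In OA 25 rose and 29 fell, where the shares were 30.4% and 29.7%, and 22 rose and 30 fell without OA replicate 3. Set directly against OA, DNL had 36 higher and 14 lower (31.9% and 30.9% of all genes), and with library totals as the only scaling 22 lower. The shares against WT also apply to each list below, and no list was tested against them. Among 14 transcription factors and SREBP gatekeepers, 6 rose and 4 fell in DNL, and 3 rose and 8 fell in OA. SREBF1 rose from 78.6 ± 1.44 CPM in WT to 310 ± 11.1 in DNL (adjusted p = 2.98e-12) and fell to 57.0 ± 1.62 in OA (adjusted p = 1.73e-06). MLXIPL fell from 269 ± 12.8 to 180 ± 3.67 in DNL and to 41.9 ± 3.29 in OA (adjusted p = 1.14e-06 and 3.49e-12). In the same OA libraries FASN, ACSS2 and ACLY were higher than in WT, and ACACB and MID1IP1 were lower. A link of these members to SREBF1 or MLXIPL was not tested. INSIG1, which holds SREBP back in the endoplasmic reticulum, was at 0.202 ± 0.0177 CPM in WT, 1.69 ± 0.412 in DNL and 1.33 ± 0.730 in OA. Both rises of INSIG1 passed the test (adjusted p = 0.00011 and 0.000369), at a level of 20 counts over the WT group. INSIG1 measured 0.711, 1.15 and 2.14 CPM in OA replicates 1, 2 and 3, in the order of COL1A1, and without replicate 3 its log2 fold change in OA was 2.24 (adjusted p = 0.00108). As for ME1, levels this low may come from the way reads were assigned, which was not tested. USF2, an E-box factor, fell in DNL from 58.4 ± 5.79 to 36.8 ± 3.64 CPM.

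Of 16 genes of citrate and acetyl-CoA supply, 6 rose and 4 fell in DNL, while OA had 5 rise and 7 fall. ACSS1, the mitochondrial counterpart of ACSS2, rose from 19.2 ± 1.74 to 78.6 ± 1.95 CPM in DNL. In OA it was at 24.4 ± 4.91 (adjusted p = 0.0195). Without OA replicate 1, OA replicate 2 or WT replicate 2 the adjusted p was 0.0864, 0.0551 and 0.0825. DLAT, a subunit of pyruvate dehydrogenase, had 68.1 ± 6.70 CPM in WT and rose in both models, reaching 120 ± 8.68 in DNL and 95.7 ± 7.53 in OA. The citrate importer SLC13A5 was at 221 ± 1.87 CPM in WT and 202 ± 6.01 in DNL, a call lost without DNL replicate 1 (adjusted p = 0.103) or 2 (0.0551), and fell to 81.6 ± 0.907 in OA. Pyruvate carboxylase, PC, fell from 176 ± 4.98 to 130 ± 4.43 in DNL.

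In the list of NADPH supply, 3 of 8 tested genes rose and 1 fell in DNL, and 3 rose and 3 fell in OA. ALDH1L1, a folate enzyme that makes NADPH, fell from 14.0 ± 1.35 to 3.66 ± 0.205 and 6.85 ± 0.595 CPM. Among 13 AMPK subunits and carboxylase partners, 4 rose and 6 fell in DNL, and 5 rose and 6 fell in OA (3 and 6 without OA replicate 3). CPT1A, the target of malonyl-CoA inhibition, rose from 174 ± 2.16 to 242 ± 5.36 CPM under DNL and to 308 ± 12.6 under OA. PRKAA1, the AMPK catalytic subunit alpha 1, fell to 66.1 ± 4.79 CPM in OA from 137 ± 4.25 in WT. BTD, which recycles biotin, the cofactor of the carboxylases, rose from 35.0 ± 2.03 to 55.6 ± 2.46 CPM in DNL and fell to 20.1 ± 1.66 in OA. TRIB3 fell from 708 ± 29.04 to 415 ± 12.8 CPM in DNL.

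The desaturases and elongases, some acting on palmitate or its products and others on polyunsaturated or very long chains, numbered 12, of which 7 rose and 1 fell in DNL and 9 rose and 1 fell in OA, with medians of 0.85 and 0.64. FADS2 rose from 42.8 ± 1.52 to 669 ± 22.5 CPM under DNL and to 112 ± 6.41 under OA. FADS3 went the other way in the 2 models, from 39.5 ± 0.514 CPM in WT to 15.7 ± 2.17 in DNL and 60.3 ± 5.11 in OA (adjusted p = 9.7e-08 and 6.28e-05). ELOVL2 fell in OA from 183 ± 6.22 to 146 ± 7.04 CPM. The lowly expressed ELOVL4 was at 0.107 ± 0.0740 CPM in WT and 0.907 ± 0.466 in OA, a call lost with OA replicate 1 alone (adjusted p = 0.244). Mitochondrial fatty acid synthesis, a separate pathway that makes lipoic acid precursors, counted 8 genes, of which 0 rose in either model, with 2 lower in DNL and 4 in OA. The shares over all genes tested were 27.1% (higher) and 26.8% (lower) for DNL and 30.4% and 29.7% for OA, and the list's difference from other lists was not tested. MECR fell in OA from 7.53 ± 1.30 to 2.34 ± 0.646 CPM, and ACSF3 fell from 34.7 ± 0.755 to 25.4 ± 3.29 in DNL and 21.8 ± 2.77 in OA.

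**Figure D4:**
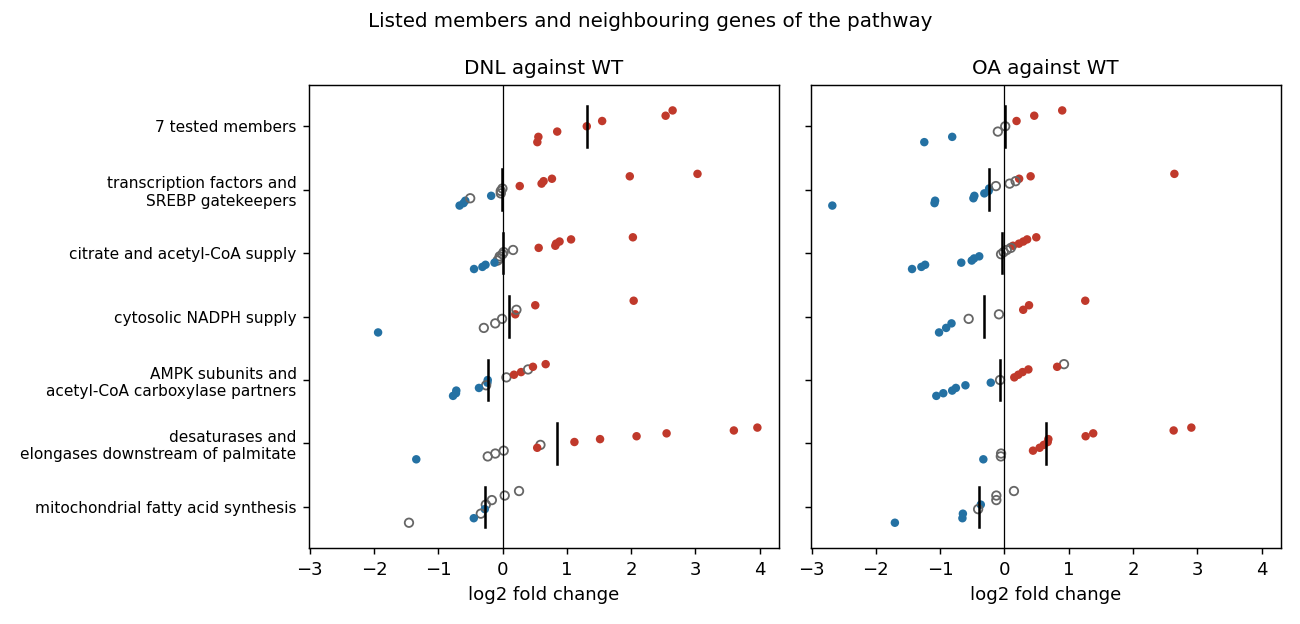
Log2 fold change (horizontal axis) of the 7 tested members and of the genes in 6 neighbouring lists, in DNL against WT (left) and OA against WT (right). Filled red points rose, filled blue points fell, open points did not pass the test and black bars are medians; the members' median is 1.31 on the left and 0.01 on the right.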

How the data were processed

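RNA was measured by stranded, ribosome-depleted sequencing in 9 HepG2 samples, 3 per group. The authors deposited estimated counts per gene, made with kallisto 0.48.0 after FastQC 0.11.9 on GRCh38, per the submitters' processing notes. Neither the annotation release nor the strand setting is given in the sources used here. Of 19317 identifiers, 19316 matched a symbol.

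Counts were rounded, filtered with filterByExpr (minimum count 10), TMM-scaled and fitted in edgeR 4.0.16 (R 4.3.3; quasi-likelihood F test), all 9 samples in 1 fit, with Benjamini-Hochberg adjustment over 13636 genes. CPM are TMM-scaled, with mean ± SD. The common dispersion was 0.0112. Alternatives used DESeq2 1.42.0, limma 3.58.1, other scaling, no filter, single libraries left out and a replicate block. No label calls replicates separate cultures, so the p-values reflect only sample-to-sample spread, possibly technical. Replicates differed by more than sampling noise (chi-square per degree of freedom 5.44 to 16.6).

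The members and lists were chosen with earlier results of these data known. Genes named were all members, SREBF1, MLXIPL, INSIG1, and per list the called gene with the largest rise and fall in DNL and in OA against WT, except 1 gene that is not reported here. For likeness, they were the 5 genes nearest to FASN and to the member farthest from it, on log2 of CPM plus 0.5. Intervals and floors cover counting error only. Markers also covered cholangiocyte, leukocyte, endothelial and adipocyte genes, summed at no more than 955, 53.4, 6.92 and 20.6 CPM in any library. The cholangiocyte sum was 459 to 475 CPM in WT, 844 to 954 in DNL and 802 to 955 in OA. The endothelial sum was 1.52 to 1.96 in WT, 5.27 to 6.92 in DNL and 0.92 to 2.14 in OA.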

Additional observations from a re-analysis of the deposited data

How the results depend on the processing

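The 7 tested members kept their side of the threshold in all 3 comparisons under each of 17 alternatives, 357 recomputed values in all, and every called member kept its direction. SLC25A1 in OA against WT, which did not pass the test, ranged from -0.061 to 0.14 and had no settled direction. These include OA replicate 1 alone, chosen after seeing the data, in which the lone OA sample is assumed to vary like the other groups. The lowest and highest log2 fold changes of FASN were 2.48 and 2.67 in DNL against WT. Scaling by library totals alone moved the all-gene median by -0.17 (log2) in DNL against WT and by -0.23 in DNL against OA, with 32.2% and 33.9% of calls then higher instead of 50.3% and 50.8%. Under it 22 pathway genes outside the members were lower in DNL than in OA instead of 14, and ELOVL2 in DNL against OA turned to -0.020 (adjusted p = 0.746). Without a filter on low counts 1 member was called lower in DNL than in OA, ME1. It was also called in OA against WT (adjusted p = 0.0328, but 0.114 with DESeq2), and THRSP in DNL against OA (0.0495, but 0.071 with DESeq2). The rises of PC and TRIB3 in OA against WT (adjusted p = 0.0216 and 0.0221) were lost in several fits with a library left out. The replicate numbers did not pair the samples (correlation of deviations -0.0176 to 0.0534), and with the replicate block 7, 5 and 7 members were called, as without it. The ratio of THRSP to MID1IP1 was not computed because THRSP did not pass the filter. Low counts limit what can be said of THRSP and ME1.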

Other observations

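COL1A2, the partner chain of COL1A1, had 0 counts in every WT and DNL library and measured 10.2, 41.1 and 260 CPM in OA replicates 1, 2 and 3. Over the same replicates ACACA (135, 140 and 145 CPM) and MID1IP1 (36.4, 40.8 and 43.9) rose in the order of the collagens. FASN (1620, 1381 and 1356) and ACACB (19.7, 18.5 and 15.3) fell in that order. ACLY, SLC25A1 and ACSS2 neither rose nor fell steadily. A steady order over 3 libraries arises easily, and the share of all genes with such an order was not counted. The part of the collagen signal in the members' levels was not tested. The source of the collagen reads was not tested.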
